A study of Mus musculus with 6 samples.

Results

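Ubiquitin-conjugating enzymes (E2s) were examined in the gastrocnemius (Gas) muscle of mice with and without the microRNA miR-92b. The set holds every gene symbol of the deposited count table that begins with Ube2, continues with a letter and then has only lower-case letters or digits, which gave 38 of 34714 symbols. Of these, 33 passed a filter on low counts and were tested, among 15788 tested genes in all. The rule follows names. It therefore takes in Ube2cbp, an E3 ligase that binds UBE2C, and Ube2uos, a non-coding RNA opposite Ube2u, and it leaves out a few E2s with other names, such as Cdc34.

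RNA-seq was done on 3 wild-type (WT) and 3 miR-92b knockout (M92KO) mice, all 8 weeks old and untreated, with 1 library per mouse as far as the labels say. The M92KO animals were global knockouts of the strain C57BL/6JGpt- Mir-92bem22Cd549/Gpt, so that the gene was missing from every tissue and not from muscle fibres alone. The study's methods describe male mice and age-matched C57BL/6 controls, and nothing states that the controls were littermates. Whole muscle was used, so that fewer cells of a type and less RNA per cell cannot be told apart in any value below. The p-values measure the spread between these 6 libraries, and miR-92b itself was not analysed here.

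Ubiquitin reaches its targets through a relay. An E1 enzyme activates it, an E2 carries it on a cysteine, and an E3 ligase brings the loaded E2 to the substrate. The E2 often decides which kind of chain is built, and therefore whether a protein is destroyed by the proteasome or only marked. In skeletal muscle this system removes contractile proteins during wasting, and close relatives of the E2s do the same work for the ubiquitin-like proteins SUMO, NEDD8 and ISG15.

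The 2 products of the deleted gene are shown first, because a transcript with a match to their seed (bases 2 to 8, in capitals) is one that the deletion could touch. The sequences are those of RefSeq on GRCm38.p6. Both arms come from the minus strand of chromosome 3, miR-92b-3p at chr3:89227126-89227147 and miR-92b-5p at chr3:89227165-89227188. The 3p seed is also carried by miR-25-3p, miR-32-5p, miR-92a-3p, miR-363-3p and miR-367-3p, of which miR-92a-3p and miR-25-3p are shown for comparison.
miR-92b-3p: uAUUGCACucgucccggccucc
miR-92b-5p: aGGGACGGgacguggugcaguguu
miR-92a-3p: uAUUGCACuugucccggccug
miR-25-3p: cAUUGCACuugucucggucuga

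The annotated 3′-UTRs of the E2 genes (GENCODE M21, GRCm38) were searched on the transcribed strand for GTGCAAT or TGCAATA (a 7mer) and for GTGCAATA, which holds both (an 8mer). A match of this kind stood in 7 of the 33 tested members (21.2%), and in 14.5% of the 13664 tested genes that had a 3′-UTR to search. The longest 3′-UTR had a median of 1538 bases in the members and 1188 bases in all genes tested, so the members had more sequence to search. Those of 6 members are printed with 10 bases on either side, in transcript orientation, with the match in capitals, since they are the places where the sequence of miR-92b-3p meets this gene set. Ube2z held 2 of them. Ube2w and Ube2z had an 8mer.
Ube2a, chrX:36883107-36883113, plus strand: agcgtgtttcTGCAATAgtagaacaaa
Ube2d3, chr3:135466873-135466879, plus strand: ttatatttacGTGCAATcttattcctt
Ube2g1, chr11:72683624-72683630, plus strand: ggaactgggcTGCAATAaaacatgcca
Ube2j2, chr4:155958536-155958542, plus strand: ctgtgaccaaGTGCAATgcctggcttg
Ube2w, chr1:16570957-16570964, minus strand: ctcgtgtattGTGCAATAacagtgactt
Ube2z, chr11:96047980-96047986, minus strand: tgtactgtgaGTGCAATgatagggtaa
Ube2z, chr11:96048511-96048518, minus strand: ttcctttttgGTGCAATAaagtttgttt

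For miR-92b-5p the motifs were CCGTCCC or CGTCCCA (7mer) and CCGTCCCA (8mer). A match stood in 1 member, Ube2o (3.03%), and in 5.93% of all genes searched. It lies on the minus strand and is shown as the only 5p match of the set.
Ube2o, chr11:116538617-116538623, minus strand: agcctccccaCGTCCCAgcccctcctg
Not every transcript of a gene carried its match. In Ube2a the match was in 1 of 5 transcripts searched and in Ube2d3 in 2 of 6, whereas both transcripts of Ube2g1 carried it. A match is a stretch of letters and not a measured binding site.

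The libraries held between 33160508 and 48209846 counts, with the 3 M92KO libraries the smallest of the 6. A floor of 3 counts corresponded to between 0.0628 and 0.0916 CPM (counts scaled to the size of the library), and this floor covers counting error only. The first M92KO library stood apart. Its counts differed from those of the other M92KO libraries by a chi-square per degree of freedom of 57.5 each, against 10.9 between those 2 and between 12.8 and 29.6 among WT libraries. Values without it are given beside the members whose call changes without it. The muscle fibre markers Acta1, Ckm, Mylpf, Tnnt3 and Myh4 summed to between 83933 and 97487 CPM in the 6 libraries, and 0 of 5 were called. The summed level of 5 fibroblast markers lay between 1644 and 2187 CPM in WT and between 1115 and 1527 CPM in M92KO libraries without overlap, with 3 of 5 called lower (Col1a1, Col1a2 and Dcn) and none at 0. Of 4 Schwann cell markers, 3 were called lower, Mbp and Pmp22 among them, at summed levels of 120 to 163 CPM in WT and 119 to 123 CPM in M92KO libraries. Of the tested markers of macrophages (6), endothelium (4) and fat cells (3), 0 were called. The part of these other cells in the E2 values was not tested.

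The E2 set as a whole was called at about the same share as other genes. With edgeR's quasi-likelihood test, 4 of 33 members (12.1%) had an unadjusted p-value under 0.05, the study's own threshold, which is what "called" means below. Over all genes tested this share was 12.4%. Ube2g2 and Ube2e1 were called higher in M92KO muscle (2 members, 6.06%, beside 5.47% of all genes) and Ube2h and Ube2c were called lower (2 members, 6.06%, beside 6.92%). After Benjamini-Hochberg adjustment over all genes, 0 members and 0% of all genes had an adjusted p-value under 0.05 in edgeR, and the members' adjusted p-values lay between 0.255 and 0.992. DESeq2's Wald test gave 0 members but 312 of all genes after adjustment, and before it the same 4 members and 1722 of all genes. The median log2 fold change (M92KO minus WT) was 0.03 over the members and -8.1e-05 over all genes tested, with 20 members above 0 and 13 below.

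**Figure D1:**
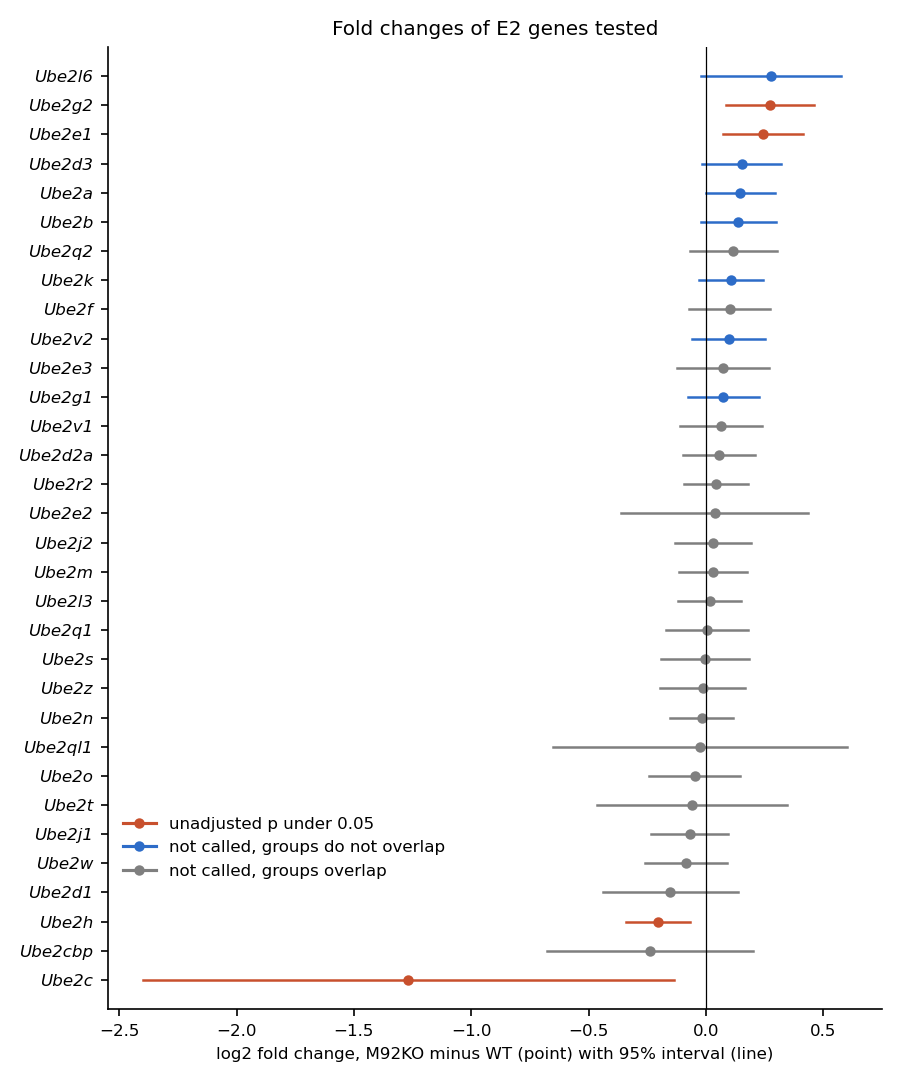
Log2 fold change of 32 of the 33 tested members, M92KO minus WT (point), with its 95% interval from the edgeR fit (line), ordered by fold change. Of these, 4 intervals leave out 0 (Ube2g2, Ube2e1, Ube2h and Ube2c). Ube2c, with counts of 4 to 32 per library, has the widest interval.

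More members than this were separated between the genotypes without being called. In 11 of 33 members (33.3%) the 3 M92KO values all lay on one side of the 3 WT values, beside 18.4% of all genes tested. In 9 members (27.3%) all M92KO libraries were above all WT libraries, beside 8.77% of all genes. In 2 members (6.06%) they were all below, beside 9.58%. An exact two-sided permutation test on 3 against 3 libraries cannot go below p = 0.1. Groups that do not overlap always give that value, so the test adds nothing for these 11 members. Without the first M92KO library the groups were separate in 18 members (54.5%), beside 37.4% of all genes. In 13 members (39.4%) the M92KO libraries were above, beside 19% of all genes. In 5 members (15.2%) they were below, beside 18.4%. In that fit 9 members (27.3%) were called, beside 18.6% of all genes.

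**Figure D2:**
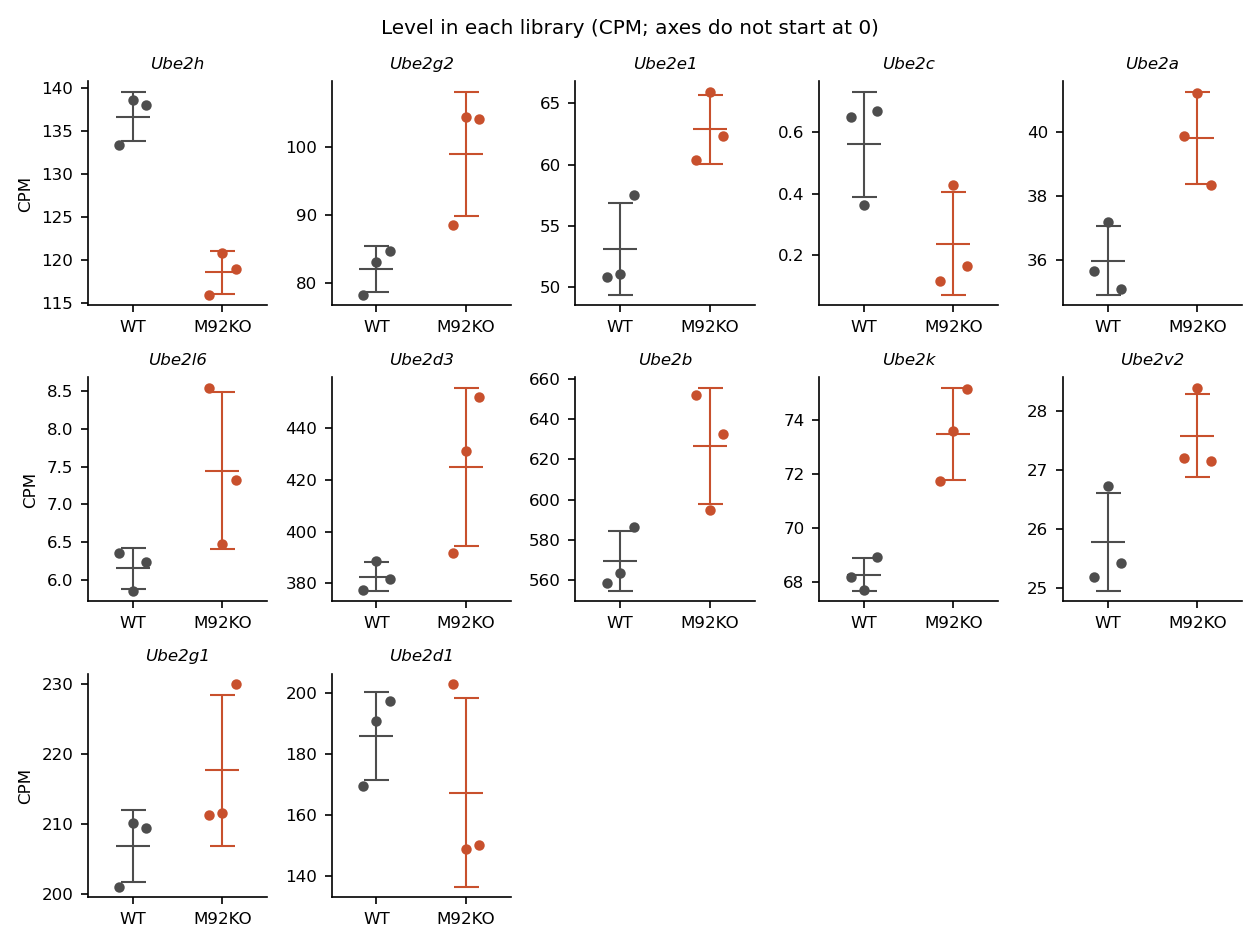
Level in CPM of the 4 called members, of 7 members that were not called but did not overlap between the groups, and of Ube2d1. Each point is 1 library, in the order of the replicate numbers, with the mean and SD of 3 libraries as bars, and the axes do not start at 0. Of the 12 genes, Ube2c and Ube2d1 are those whose groups overlap.

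Ube2h was the member with the smallest p-value. It is the E2 of the CTLH ligase complex, known for its part in the maturation of red cells. It lies on the minus strand at chr6:30211289-30304539. Its level was 133, 139 and 138 CPM in the WT libraries and 116, 121 and 119 CPM in the M92KO libraries. All M92KO values were below all WT values, with little spread in either group. The mean was 137 ± 2.90 CPM in WT and 119 ± 2.51 CPM in M92KO muscle (SD, n = 3 each), a log2 fold change of -0.21 (SE 0.060, edgeR adjusted p = 0.255). It stayed between -0.22 and -0.19 when any 1 library was left out, and it was called in all 6 of those fits. Its 3′-UTR held no 7mer or 8mer for either arm of miR-92b, only the shorter TGCAAT and CGTCCC. Of the 11 subunits of the CTLH complex, 0 were called (median log2 fold change 0.03). Red cell markers summed to between 74.0 and 222 CPM in WT and between 143 and 336 CPM in M92KO libraries. These sums overlapped, and 0 of 5 markers were called, with a median log2 fold change of 0.66.

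Ube2g2 was called higher. It works with the ligases of the endoplasmic reticulum (ER) that clear misfolded proteins, and it lies on the plus strand at chr10:77622275-77645993. Its level was 78.2, 83.1 and 84.7 CPM in WT and 88.5, 104 and 104 CPM in M92KO libraries. The first M92KO library was the nearest to WT, and the groups did not overlap. The means were 82.0 ± 3.40 and 99.1 ± 9.15 CPM (SD, n = 3 each), and the log2 fold change was 0.27 (SE 0.082, edgeR adjusted p = 0.258). Without the first M92KO library, a fit chosen after seeing the data, it was 0.35, with an adjusted p of 0.0274 by edgeR. Ube2g2 was the only member under 0.05 after adjustment in any of the fits run. In that fit 399 of 16058 genes were under 0.05 after adjustment. The range over the 6 fits that left out 1 library was 0.23 to 0.35, and it was called in each.

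The other E2s of ER-associated degradation were not called. Ube2g1, the paralog of Ube2g2, had 201, 210 and 209 CPM in WT and 211, 212 and 230 CPM in M92KO libraries. The groups did not overlap, though narrowly, and the log2 fold change was 0.07 (SE 0.066, edgeR adjusted p = 0.712). Ube2j1 and Ube2j2, which are anchored in the ER membrane, overlapped between the genotypes at 57.6 to 67.4 CPM and 46.7 to 53.3 CPM, with log2 fold changes of -0.07 and 0.03. Of 18 tested partners in this process, 1 was called, Ubxn4, an ER protein that holds the ATPase p97 at the membrane (84.3 CPM in WT and 101 CPM in M92KO muscle, log2 fold change 0.27, edgeR adjusted p = 0.221). The ligase Syvn1 was at 32.2 CPM in both WT and M92KO muscle and was not called.

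Ube2e1, an E2 with an extended N terminus that works with several RING ligases, was also called higher. It lies on the minus strand at chr14:18282722-18331859. Its level was 50.9, 51.1 and 57.5 CPM in WT and 60.4, 65.9 and 62.3 CPM in M92KO libraries. The groups did not overlap, and the third WT library was the nearest to the M92KO values. The means were 53.1 ± 3.77 and 62.9 ± 2.83 CPM (SD, n = 3 each), with a log2 fold change of 0.24 (SE 0.075, edgeR adjusted p = 0.269). It was no longer called without the first or the second WT library (0.21 in both fits). The exons of Ube2e1 share 718 bases with Nkiras1 on the opposite strand. Nkiras1 was itself called higher, with 72.3, 69.4 and 70.7 CPM in WT and 86.6, 93.4 and 96.8 CPM in M92KO libraries (log2 fold change 0.38, SE 0.067, edgeR adjusted p = 0.165). Whether the counting used the strand is not given in the sources used here, and without strand the reads of the 2 genes in the shared bases cannot be told apart. Its relatives overlapped between the groups. Ube2e2 was at 3.52 to 4.94 CPM (log2 fold change 0.04) and Ube2e3 at 30.9 to 38.2 CPM (0.07).

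Ube2c had the lowest level of the tested members and the widest error. It starts ubiquitin chains for the anaphase promoting complex in dividing cells, and it lies on the plus strand at chr2:164769898-164778822. Its counts were 30, 14 and 32 in WT and 4, 14 and 6 in M92KO libraries, which is 0.649, 0.362 and 0.670 CPM against 0.115, 0.427 and 0.165 CPM. The second library of each group had the same 14 counts, so the groups overlapped. The log2 fold change was -1.27 (SE 0.50, edgeR adjusted p = 0.362), and it was called in 2 of the 6 fits that left out 1 library, with a range of -1.98 to -0.95. The latter value was that without the first M92KO library, in which fit it was not called. Its exons share 592 bases with Tnnc2 on the opposite strand at 5862 to 7803 CPM, a troponin gene of fast fibres whose groups overlapped, and reads in the shared bases cannot be told apart without strand. Ube2s, which extends the chains that Ube2c starts, overlapped at 35.3 to 41.2 CPM (log2 fold change -0.0037), and its exons share 183 bases with Rpl28 on the opposite strand. The summed level of 6 proliferation markers was 4.02 to 7.71 CPM in WT and 3.97 to 5.19 CPM in M92KO libraries. Of the 5 tested, 0 were called, with a median log2 fold change of -0.40. In the 16 subunits and activators of the anaphase promoting complex 1 was called, Anapc7 (22.7 and 26.9 CPM, log2 fold change 0.25, edgeR adjusted p = 0.258), and it was higher.

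Ube2b had the highest level per kb of the E2 genes on every length tried. With its close relative Ube2a it is the mammalian form of yeast Rad6, which ubiquitinates histone H2B and PCNA and serves the N-end rule ligases studied in wasting muscle. Ube2b was at 558, 564 and 586 CPM in WT and 652, 595 and 633 CPM in M92KO libraries. All M92KO values were above, the second one by little, and the log2 fold change was 0.14 (SE 0.070, edgeR adjusted p = 0.480). Ube2a had 35.7, 37.2 and 35.1 CPM in WT and 39.9, 41.2 and 38.3 CPM in M92KO libraries. It was the member nearest to the threshold without being called, with a log2 fold change of 0.15 (SE 0.064, edgeR adjusted p = 0.405) and an interval from -0.00021 to 0.29. The shares of the pair overlapped between the genotypes, and Ube2b held between 93.9% and 94.7% of their summed counts per kb in all 6 libraries. Ube2t, the E2 of the Fanconi anaemia pathway, had means of 5.19 CPM in WT and 4.99 CPM in M92KO muscle with overlapping groups (log2 fold change -0.06). Among 6 partners of Ube2a and Ube2b (Rad18, Rnf20, Rnf40, Ubr1, Ubr2 and Wac) 0 were called.

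The Ube2d subfamily serves the largest range of E3 ligases, among them the muscle ligase MuRF1 in test-tube assays. Ube2d3 was at 377, 389 and 382 CPM in WT and 392, 431 and 452 CPM in M92KO libraries. All M92KO values were above all WT values, the first one by only a few CPM. The log2 fold change was 0.15 (SE 0.074, edgeR adjusted p = 0.463), and 0.21 without the first M92KO library, in which fit it was called, as it was with offsets for GC content and transcript length (0.17). Ube2d1 went the other way in the same libraries. It had 169, 191 and 197 CPM in WT and 203, 149 and 150 CPM in M92KO libraries. The first M92KO library was the highest of the 6 and the other two the lowest, so the groups overlapped. The log2 fold change was -0.15 (SE 0.13, edgeR adjusted p = 0.687) with all libraries and -0.32 without the first M92KO library, in which fit it was called. Ube2d2a overlapped at 66.6 to 74.5 CPM (0.05).

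Within the subfamily the shares therefore separated 1 M92KO library from the other two. Ube2d1 held 64.4%, 66.9% and 67.3% of the subfamily's counts per kb of merged exon in WT and 67.8%, 58.6% and 58.1% in M92KO libraries. Ube2d3 held 25.6%, 24.3% and 23.3% in WT and 23.4%, 30.3% and 31.2% in M92KO libraries. The first M92KO library lay at the WT end of both ranges. Without the division by length Ube2d3 held 58.5% to 61.2% of the counts in WT and 59.0% to 67.0% in M92KO libraries, so which of the 2 genes holds the larger share depends on the length used. Near-identical copies can share reads. Ube2d2b, Ube2dnl1 and Ube2dnl2 had 0 counts in every library, whereas the pseudogene Ube2d-ps, which the symbol rule leaves out, was at 24.0 to 28.1 CPM.

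**Figure D3:**
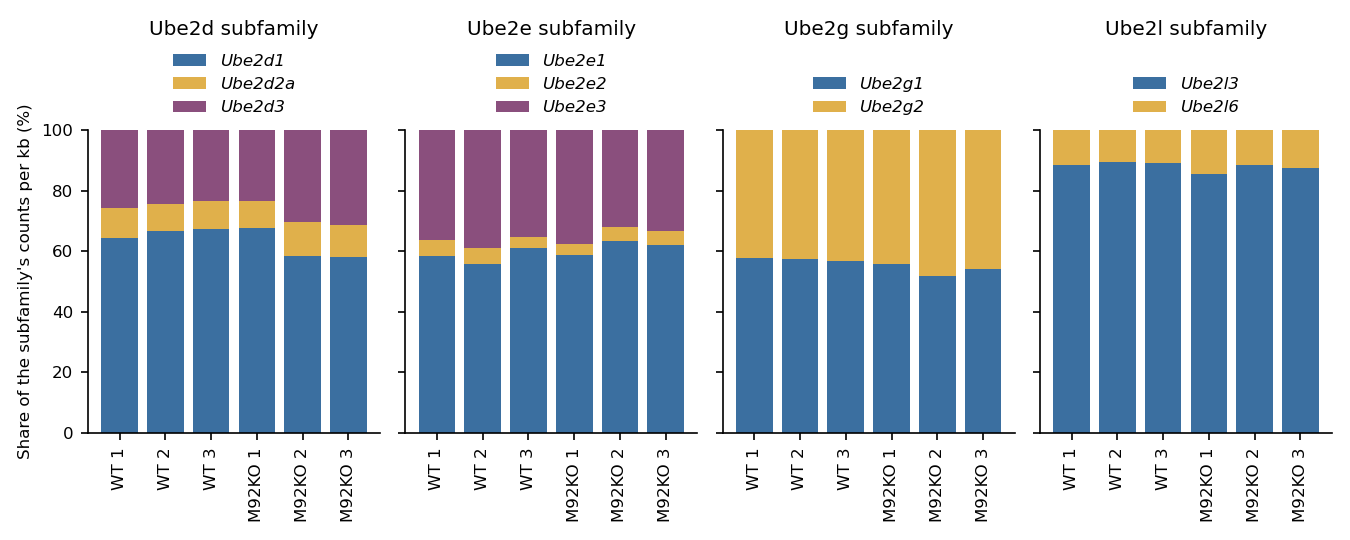
Share of each paralog in the counts per kb of merged exon of its subfamily, in percent, for each of the 6 libraries, in the Ube2d, Ube2e, Ube2g and Ube2l subfamilies. Ube2g2 took 42.3% to 43.2% of its pair in WT and 44.1% to 48.2% in M92KO libraries, the only one of these subfamilies whose shares do not overlap between the genotypes.

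Ube2g1 and Ube2g2 were the only pair, of the 10 subfamilies examined, in which the shares did not overlap between the genotypes. These shares come from the same counts as the call of Ube2g2. Single genes did not overlap in 18.4% of all genes tested. Cdc34 held 78.3% to 81.7% of its pair with Ube2r2, Ube2m held 84.1% to 86.4% of its pair with Ube2f, and Ube2q2 held 66.4% to 71.7% of the Ube2q group. These ranges cover all 6 libraries.

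Ube2k, Ube2r2, Ube2n, Ube2v1 and Ube2v2 take part in building chains with a set linkage. None of these was called with all 6 libraries, but Ube2k and Ube2v1 were called higher without the first M92KO library. Ube2k, which builds degradative chains without help, had 68.2, 67.7 and 68.9 CPM in WT and 71.7, 73.6 and 75.1 CPM in M92KO libraries. The groups did not overlap and each was tight, with a log2 fold change of 0.11 (SE 0.060, edgeR adjusted p = 0.529), and 0.12 without the first M92KO library. Ube2r2, a partner of the SCF ligases, overlapped at 127 to 135 CPM (log2 fold change 0.04). Ube2n, which with the inactive E2 variants Ube2v1 and Ube2v2 builds signalling chains, was among the steadiest members at 76.4 to 79.1 CPM (-0.02, 95% interval -0.15 to 0.11). Ube2v2 was at 25.2, 26.7 and 25.4 CPM in WT and 27.2, 28.4 and 27.1 CPM in M92KO libraries, all above but not called (log2 fold change 0.10, SE 0.068, edgeR adjusted p = 0.625). Ube2v1 overlapped at 93.2 to 110.03 CPM (0.06), with the first M92KO library the lowest of the 6, and its log2 fold change was 0.13 without that library. The exons of Ube2v1 share 1673 bases with Gm20431 on the same strand, a gene that is not among the deposited symbols. Reads in those bases cannot be told apart by strand. Of 9 partners of these signalling chains, Traf2, an adaptor of TNF receptors, was called higher (21.3 and 27.7 CPM, log2 fold change 0.38, edgeR adjusted p = 0.186) and Peli2 was called lower (14.6 and 12.5 CPM, -0.23, edgeR adjusted p = 0.364).

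The E2s for ubiquitin-like proteins had no called member with all 6 libraries. Ube2l6, which conjugates the interferon-induced modifier ISG15, had the largest positive log2 fold change of the set, 0.28 (SE 0.13, edgeR adjusted p = 0.444), at a low level. It was at 6.36, 5.85 and 6.24 CPM in WT and 8.55, 6.47 and 7.32 CPM in M92KO libraries. The groups did not overlap, the first M92KO library was the highest, and without that library the log2 fold change was 0.17. The 5 genes of the ISG15 pathway (Isg15, Uba7, Herc6, Usp18 and Trim25) and 8 interferon response genes each had 0 called, the latter at a summed 82.6 to 94.3 CPM in WT and 81.9 to 103 CPM in M92KO libraries. Ube2m and Ube2f, the E2s for NEDD8, overlapped at 76.9 to 83.1 CPM (0.03) and 47.5 to 56.3 CPM (0.10). Ube2f was called higher without the first M92KO library (log2 fold change 0.16) and with offsets for GC content and transcript length (0.15).

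The SUMO and NEDD8 partners were mixed. Of 16 SUMO ligases and proteases, 3 were called, among them Nsmce2, which was higher (17.3 CPM in WT and 21.7 CPM in M92KO muscle, log2 fold change 0.33, edgeR adjusted p = 0.289), and Pias1, which was lower (36.7 and 32.4 CPM, -0.18, edgeR adjusted p = 0.355). Of 18 NEDD8 and cullin partners, Dcun1d5 was called higher (0.26) and Cand1, which exchanges the substrate receptors of cullin ligases, lower (-0.29).

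The remaining members overlapped between the genotypes with all 6 libraries. Ube2l3, which works with the RBR ligases including parkin, was at 145 to 150.4 CPM (log2 fold change 0.02, 95% interval -0.12 to 0.15), and its exons share 1670 bases with Ydjc on the opposite strand, which had 9 counts or fewer in every library. Of 13 ligases of that kind 1 was called, Rbck1 of the linear chain complex, which was lower (-0.15). Ube2o, a combined E2 and E3 that acts on ribosomal proteins in immature red cells, was at 45.3 to 55.3 CPM (-0.05). Ube2w, which modifies the N terminus of proteins, was at 20.9 to 23.9 CPM (-0.09), and Ube2z, which is loaded by the E1 Uba6, was at 46.9 to 54.9 CPM (-0.01). Ube2q1 (27.9 to 32.1 CPM, 0.0037), Ube2q2 (means of 48.6 and 52.7 CPM, 0.12, and 0.18 and called without the first M92KO library) and Ube2ql1 (0.580 to 0.921 CPM, -0.03) made up the Q group. Ube2cbp was at 2.08 to 3.52 CPM (-0.24, 95% interval -0.68 to 0.20). The 5 untested members were Ube2u, with 5 counts in 1 WT library and 2 in 1 M92KO library and 0 in the others, and Ube2d2b, Ube2dnl1, Ube2dnl2 and Ube2uos, with 0 counts in all 6. A count of 0 allows a level of up to the floor of 0.0628 to 0.0916 CPM.

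The summed level of the set was slightly higher in M92KO muscle, and this rested on the genes with the most counts. It was 2817, 2873 and 2938 CPM in WT and 2988, 2958 and 3058 CPM in M92KO libraries, all above, with means of 2876 ± 60.6 and 3001 ± 51.7 CPM (SD, n = 3 each) and a difference of 4.36%. Without Ube2b the groups overlapped and the difference was 2.96%. Without Ube2b and Ube2d3 it was 1.34%. Ube2b alone took 19.6% to 21.8% of all E2 counts, and with Ube2d3, Ube2g1 and Ube2d1 it took 46.4% to 48.8%.

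Shares of counts depend on transcript length, so levels were ordered between genes per kb of exon. On merged exon length Ube2b was first at 281 CPM per kb (mean of 6 libraries, range 263 to 307), with no overlap with the next. Ube2g1 (46.4), Ube2d1 (40.4), Ube2g2 (37.2), Ube2v1 (37.1) and Ube2m (33.6 CPM per kb) followed, and the ranges of each of these and its neighbour overlapped. At the lower end were Ube2t (1.05), Ube2e2 (0.961), Ube2ql1 (0.272) and Ube2c (0.153 CPM per kb). The place of Ube2d3 depended on the length, because its annotated exons merge to 24499 bases. It was 13th on that length and 2nd on the median length of its coding transcripts (2499 bases), with 162 CPM per kb. The latter length was tried after the values had been seen.

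**Figure D4:**
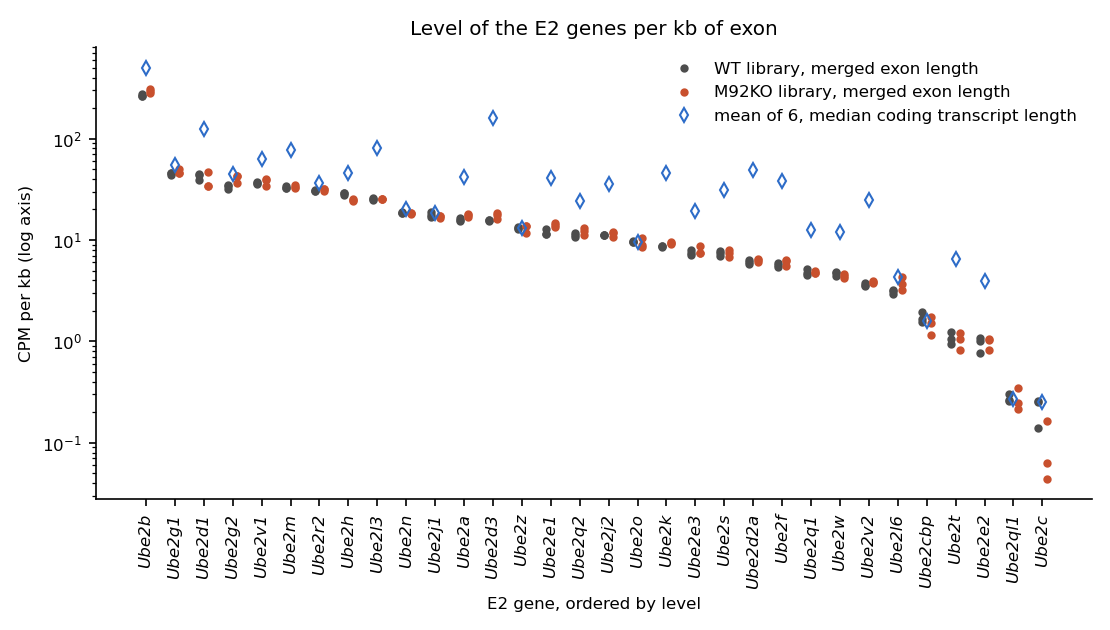
Level of 32 of the 33 tested members in CPM per kb on a log axis, ordered by the mean over merged exon length, with 1 point per library. Open diamonds give the mean of 6 libraries on the median coding transcript length. Ube2b is above all others on both lengths, and Ube2d3 moves most, from 16.5 to 162 CPM per kb.

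None of the 4 called members had a 7mer or 8mer for miR-92b-3p. Of the 7 members with a match, 4 had a positive log2 fold change (Ube2a, Ube2d3, Ube2g1 and Ube2j2) and 3 had a negative one, Ube2w and Ube2z among them. Their median was 0.03, as was that of the 26 members without a match (0.03). In Ube2a, Ube2d3 and Ube2g1 the M92KO libraries were all above WT. Over all genes the medians were -0.02 with a match and 0.0012 without one. Ube2w and Ube2z, with an 8mer, had log2 fold changes of -0.09 (95% interval -0.26 to 0.09) and -0.01 (-0.19 to 0.17).

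The wider pathway was examined through 14 lists. Of 166 tested genes outside the symbol rule, 19 were called (11.4%), 12 higher and 7 lower, with 0 under an adjusted p of 0.05 in edgeR. Of 10 E1 enzymes and E1 subunits 0 were called, and Uba1, the main E1 for ubiquitin, had means of 180.3 and 179 CPM. The 9 genes of ubiquitin-like proteins also had 0 called. Of 8 tested E2 genes with other names 2 were called, both E2 variants without a catalytic cysteine. Tsg101, of the endosomal sorting machinery, was higher (56.9 and 65.2 CPM, log2 fold change 0.20, edgeR adjusted p = 0.352), and Uevld was lower (14.0 and 10.2 CPM, -0.46, edgeR adjusted p = 0.268). Cdc34 overlapped at 172 to 225 CPM (0.12).

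The list of muscle ubiquitin ligases had the largest share of called genes among the lists with at least 10 tested genes, 7 of 29 (24.1%, beside 12.4% of all genes), 5 higher and 2 lower, with a median log2 fold change of -0.00081. The list of 8 tested E2 genes with other names had 25% called. All lists were chosen with earlier results of these data known, so these shares are descriptions only. Of the called muscle ligases, the higher ones with the smallest p-values were Klhl40, Trim72 and Trim54, followed by Klhl41 and Fbxo40. Klhl40, an adaptor that steadies thin filament proteins, had 131, 123 and 141 CPM in WT and 145, 207 and 191 CPM in M92KO libraries (0.46, SE 0.13, edgeR adjusted p = 0.231). Trim72, the membrane repair protein MG53, had 182, 183 and 180.1 CPM in WT and 199, 232 and 230.4 CPM in M92KO libraries (0.28, SE 0.077, edgeR adjusted p = 0.232). Trim54, the muscle ligase MuRF3, had 302, 297 and 307 CPM in WT and 395, 336 and 361 CPM in M92KO libraries (0.27, SE 0.077, edgeR adjusted p = 0.243). The groups did not overlap in any of these 3 genes, whereas in Klhl41 and Fbxo40 the first M92KO library lay within the WT range. Fbxo30 was called lower (-0.25), as was Fbxo21 (-0.23).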

How the data were processed

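The authors deposited raw read counts per gene symbol for 6 libraries made with a SMARTer kit (per the labels), with GRCm38 and mm10 named in the submitters' processing notes. The aligner, counting program, annotation and strandedness are not given in the sources used here. Totals were 34675374, 33160508 and 37019640 counts in M92KO and 44931338, 38246649 and 48209846 counts in WT libraries. Every column of values belonged to a sample.

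The test was edgeR 4.0.16 in R 4.3.3. Genes passed filterByExpr (at least 10 counts, 15 in total), TMM gave scaling factors of 0.981 to 1.03, and the quasi-likelihood functions glmQLFit and glmQLFTest tested genotype alone, with Benjamini-Hochberg adjustment over 15788 genes. CPM use TMM library sizes. Standard errors were obtained from the fold change and the F statistic. The fit was tested on simulated data. An exact permutation test was run on log2 CPM.

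Members and gene lists were chosen with earlier results of these data known. Some genes that the rule takes in are left out of the text and figures. The other members that were called (unadjusted p under 0.05) or did not overlap are given with all values. Of each list at most the 5 called genes with the smallest p are named, except the muscle ligases, where all 7 are named. Ube2d1, the overlapping genes and Ube2d-ps were added after their values were seen.

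Positions, exon lengths and 3′-UTRs of at least 20 bases came from GENCODE M21, which holds 25731 of the symbols, another 419 under a synonym and none of the other 8564. All 34714 symbols were in the RefSeq table of GRCm38.p6. Alternatives used DESeq2 1.42.0, limma 3.58.1 (the study's quantile normalization and log2 after adding 1), other filters, GC content and length offsets (lowess span 0.3), thinning, the replicate number as a block, and each library left out. Tables and plots came from Python 3.11.15 (pandas 2.3.3, scipy 1.17.1, matplotlib 3.10.9).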

Additional observations from a re-analysis of the deposited data

How the results depend on the processing

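The 4 called members were also called with DESeq2's size factors, with no filter, after thinning to the smallest library and by DESeq2's Wald test. Ube2h and Ube2g2 were called in all 15 alternatives. Leaving out 1 library moved the count of called members between 2 (without the first WT library) and 9 (without the first M92KO library), and that of all genes between 1221 (without the second WT library) and 2984 (without the first M92KO library). It was 1272 genes without the third WT library. The study's steps (quantile normalization, log2 and limma) were run without a filter on all 34714 genes. They called 9 of 38 members and 2287 of all genes, 1244 higher and 1043 lower. Of its 15788 filtered genes, edgeR called 863 higher and 1092 lower, so the 2 settings cover different gene sets. Genes under an adjusted p of 0.05 numbered 0 in edgeR but 312 by DESeq2, 42 by the study's steps, 6 with no filter and 399 without the first M92KO library. Of 194 alternatives of single genes, over 13 genes and 15 settings, 173 kept their direction and side of the threshold, 9 were weaker, 12 stronger and 0 reversed. With an 8mer required, 2 members matched miR-92b-3p and 0 matched miR-92b-5p, and with a 6mer 15 and 3 did. With the replicate number as a block, 3 members were called, and 3 also with the block and GC content and length offsets, both without Ube2c, and 1691 and 1713 of all genes were called. Whether the numbers pair the mice is not known. For each gene the mean of the group was subtracted from log2 CPM, and what remained was correlated between WT and M92KO libraries. On these remainders, libraries with the same number had correlations of 0.081, 0.038 and 0.015. The first and the second WT library each correlated best with the M92KO library of the same number. The third WT library correlated best with the second M92KO library (0.036). Correlations this small cannot decide whether the mice were paired. The cause of the differences between settings was not tested. The summed level differed by 3.30% to 5.50% with any 1 library left out. Depth limits Ube2c, Ube2ql1 and the untested members. The median coding transcript length and the values without the first M92KO library were chosen after seeing the data.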
